A study of Homo sapiens with 24 samples.

Results

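The fragments described here belong to zinc finger genes: the entries of the count table whose gene symbol begins with ZNF, ZSCAN, ZKSCAN, ZFP or ZBTB. They held 644 of 13515 variants, at 539 of 11265 SNPs and in 72 of 1637 genes, which makes 1183 of 24780 oligos. The study was a massively parallel reporter assay, in which a pool of plasmids carries short pieces of human 3′ UTR behind a reporter gene, and the RNA made from each plasmid is counted against the plasmid itself. Each piece was present with the reference base and with 1 or more alternative bases of a SNP linked to neurological disorders. The comparisons ask which pieces change reporter RNA, which single bases do so, and whether the cell lines differ. The 4 groups were SH-SY5Y DNA, SH-SY5Y RNA, microglia DNA and microglia RNA, with 6 replicates each (24 libraries), and all cells received the pool with a lipid transfection reagent.

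SH-SY5Y is a human neuroblastoma line, and the microglia are a line immortalized with SV40, so each group stands for 1 proliferating line and its replicates come from that line. P-values measure the spread between those replicates, not between people or between lines of a kind. The counts come from the reporter alone, so the identity of either line was not checked against marker genes here, and no value below is the expression of a zinc finger gene in its own locus.

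C2H2 zinc finger proteins bind DNA through rows of small fingers, each folded around a zinc ion, and form a very large family of human transcription factors. Many ZNF proteins carry a KRAB domain, which recruits the corepressor TRIM28 and through it the enzymes that silence transposable elements. ZSCAN proteins carry a SCAN domain, by which they pair with other SCAN proteins, ZKSCAN proteins carry both domains, and ZBTB proteins carry a BTB domain that pairs them and binds corepressors. The 3′ UTR of a gene acts on its RNA: microRNAs and RNA-binding proteins attach there and set how long the RNA lasts and how well it is translated.

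By symbol there were 427 variants of 50 ZNF genes, 76 of 6 ZSCAN genes, 65 of 5 ZKSCAN genes, 20 of 2 ZFP genes (ZFP3 and ZFP64) and 56 of 9 ZBTB genes. All 72 symbols matched the RefSeq annotation of GRCh38.p14, and 1 of them, ZNF649-AS1, is there a non-coding antisense RNA while another, ZNF660-ZNF197, is a readthrough of neighbouring genes. The genes lie on 18 chromosomes, with 19 on chromosome 19 and 17 on chromosome 6. Of those on chromosome 6, 9 start between 28 and 29 Mb. They are the cluster of ZSCAN and ZKSCAN genes of that chromosome, and ZNF311 (start 28994788). A gene had between 1 and 37 variants (median 6), and ZSCAN12 had the most. Fragment sequences and SNP positions were not used here, so coordinates below are those of whole genes and no sequence is shown.

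SH-SY5Y libraries held 16556722 to 19101103 counts each for DNA and 11764547 to 18100832 for RNA, and microglia libraries 12154918 to 17570853 and 7018516 to 10437069. Zinc finger oligos took 4.41% to 4.54% of each library, and their median count per oligo was 528 to 605 and 338 to 537 in SH-SY5Y DNA and RNA, and 395 to 563 and 216 to 323 in microglia DNA and RNA. Both alleles had to average 10 or more DNA counts in a line's libraries, which left 627 variants to test in SH-SY5Y and 623 in microglia, with 17 and 21 too shallow in DNA. SH-SY5Y RNA varied more between replicates: the median SD of an allelic effect was 0.77 on the log2 scale in SH-SY5Y and 0.37 in microglia. The fits' median standard errors were 0.32 and 0.21. Duplicate reads made up 39.7% to 72.7% in SH-SY5Y RNA libraries and 6.42% to 10.5% in microglia RNA libraries. In DNA libraries they made up 4.23% to 5.13% and 12.6% to 17.1%. Whether duplication bears on the spread or on the numbers of calls was not tested. Same-numbered libraries of different lines resembled each other slightly, as if 1.76% to 3.16% of reads were shared, and all tests were repeated with that share subtracted.

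The allelic effect is the log2 ratio of alternative to reference counts in RNA minus the same ratio in plasmid DNA, so a positive value means more RNA from the alternative allele than its plasmid share predicts. In microglia, 9 of the 623 variants passed the threshold of 0.05 after Benjamini-Hochberg adjustment over all variants of the assay (edgeR quasi-likelihood test), at 7 SNPs of 6 genes. The alternative allele was higher for 6 of them and lower for 3, beside 0.914% of all variants called higher and 0.822% called lower. The 9 are 1.44% of those tested, near the 1.74% called among all variants of the assay. In SH-SY5Y, 2 of 627 passed, both lower and both in ZFP64, beside 0.399% of all variants (0.207% higher and 0.192% lower).

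The largest lower effects were in ZKSCAN4 and ZFP64. ZKSCAN4, a KRAB and SCAN domain gene in the chromosome 6 cluster (28241697 to 28259211), held rs75876212 T>C. In microglia the log2 ratio of C to T was 0.086 at lowest, 0.37 at the median and 0.46 at highest in the 6 DNA libraries, and -1.49, -1.12 and -0.82 in the 6 RNA libraries. Every RNA library lay below every DNA library. The C allele was 2.79-fold lower (log2 -1.48 ± 0.24, SD, n = 6; adjusted p = 3.18e-11), and the call was kept under every alternative tried, with values from -1.54 to -1.43.

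In SH-SY5Y the same ratio was 0.11, 0.32 and 0.45 in DNA (lowest, median, highest) and -1.11, -0.63 and 0.15 in RNA. The highest RNA library reached into the DNA range, and the other RNA libraries did not. The effect, -0.85 ± 0.52, had the same direction in 6 of 6 replicates and missed the threshold (adjusted p = 0.0783). Between lines it differed by -0.63 (95% interval -1.11 to -0.16, microglia minus SH-SY5Y), which did not pass adjustment over all variants (adjusted p = 0.687).

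ZFP64 encodes a C2H2 transcription factor known for driving KMT2A expression in leukaemia (chromosome 20, 52084011 to 52191779). At its SNP rs79646797 both alternative bases were lower in both lines. For G>A in microglia the log2 ratio of A to G was -0.41, -0.27 and -0.19 in DNA (lowest, median, highest) and -2.30, -1.98 and -1.47 in RNA, and in SH-SY5Y it was -0.19, -0.15 and -0.077 in DNA and -2.53, -1.60 and -0.40 in RNA. RNA and DNA did not overlap in either line. The A allele was 3.10-fold lower in microglia (log2 -1.63 ± 0.35; adjusted p = 2.78e-09) and 2.66-fold lower in SH-SY5Y (-1.41 ± 0.72; adjusted p = 0.0194).

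For G>T the log2 ratio of T to G was -1.09, -0.95 and -0.58 in microglia DNA and -4.51, -2.81 and -2.01 in microglia RNA. In SH-SY5Y it was -1.05, -0.91 and -0.74 in DNA and -5.13, -3.29 and -1.74 in RNA. Again no RNA library reached the DNA range. The T allele was 3.78-fold lower in microglia (-1.92 ± 0.91; adjusted p = 5.04e-07) and 5.17-fold lower in SH-SY5Y (-2.37 ± 1.14; adjusted p = 0.00685). Differences between lines were -0.22 for A (95% interval -0.85 to 0.41) and 0.41 for T (-0.59 to 1.40), neither past the threshold (adjusted p = 0.972 and 0.968).

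The A and T alleles of ZFP64 are compared with the same reference counts, so their tests are not independent. In SH-SY5Y the G>A call was lost without replicate 1, 2, 4, 5 or 6 (adjusted p up to 0.121 over all alternatives) and with limma, and the G>T call was lost without replicate 1 or 5 (up to 0.0533). In microglia both calls held under every alternative. A second SNP of ZFP64 gave no called effect, at 0.78 in SH-SY5Y and 0.14 in microglia (adjusted p = 0.781 and 0.924).

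The higher alternative alleles were called in microglia alone, at 5 SNPs of 4 genes. ZBTB22, a BTB domain gene of the MHC region (chromosome 6, 33314418 to 33317942), had 1 SNP, rs114111424, with both alternative bases higher. The log2 ratio of T to C was 1.40, 1.95 and 2.62 in microglia DNA and 2.697, 2.82 and 3.13 in RNA, and that of A to C was 0.69, 1.56 and 2.08 in DNA and 2.08, 2.42 and 2.72 in RNA. No RNA library overlapped the DNA libraries. Both alleles were 1.88-fold higher than the plasmid predicts (T 0.91 ± 0.16, adjusted p = 0.000505; A 0.91 ± 0.24, adjusted p = 0.00341). They share the reference counts, of which RNA held 817 over the 6 libraries, and with limma the call for A was lost (adjusted p = 0.0662).

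In SH-SY5Y the ZBTB22 effects were 0.45 ± 0.96 for T and 0.21 ± 0.74 for A (adjusted p = 0.772 and 0.905). Each was positive in 4 of 6 replicates, and RNA and DNA overlapped. The differences between lines, 0.46 (95% interval -0.31 to 1.24) and 0.70 (-0.019 to 1.42), did not pass (adjusted p = 0.955 and 0.867).

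ZNF589, a KRAB zinc finger gene active in blood stem cells (chromosome 3, 48241104 to 48270990), had 2 called SNPs among 22. For rs114547396 A>G the log2 ratio of G to A in microglia was -1.36, -0.99 and -0.74 in DNA and -0.55, -0.38 and 0.051 in RNA. The ranges did not overlap. The G allele was 1.63-fold higher (0.70 ± 0.23; adjusted p = 0.000323), a call that held under every alternative.

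For rs879080031 G>T of ZNF589 the log2 ratio of T to G was -0.95, -0.68 and -0.17 in microglia DNA and -0.19, 0.059 and 0.24 in RNA. Here the lowest RNA library fell just inside the DNA range. The T allele was 1.59-fold higher (0.67 ± 0.16; adjusted p = 0.00511), and higher in 6 of 6 replicates, but without replicate 2 the adjusted p was 0.0536. SH-SY5Y gave 0.28 ± 0.19 for rs114547396 and 0.092 ± 0.44 for rs879080031 (adjusted p = 0.5002 and 0.939). Differences of 0.43 (95% interval 0.070 to 0.79) and 0.58 (0.10 to 1.05) did not pass adjustment (adjusted p = 0.769 for both).

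ZKSCAN1, a KRAB and SCAN domain gene known for an abundant circular RNA (chromosome 7, 100015596 to 100045374), held rs1141057. The log2 ratio of A to C at this SNP was -0.44, 0.18 and 0.41 in microglia DNA and 0.74, 1.20 and 1.80 in RNA. No RNA library overlapped the DNA libraries, and the A allele was 2.10-fold higher (1.07 ± 0.36; adjusted p = 0.00298, or 0.0545 without replicate 2). The other alternative base, T, gave 0.10 ± 0.58 (95% interval -0.54 to 0.75; adjusted p = 0.959) at 243 DNA counts per library. The difference between the A and T alleles was not tested.

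In SH-SY5Y both ZKSCAN1 alleles were positive in 4 of 6 replicates, at 0.69 ± 1.51 for A and 0.82 ± 1.15 for T (adjusted p = 0.795 and 0.679). ZFP3, a C2H2 gene on chromosome 17 (5078467 to 5096374), held rs3744706 G>C. Its log2 ratio of C to G was -0.82, -0.65 and -0.42 in microglia DNA and -0.32, -0.0013 and 0.61 in RNA. The ranges did not overlap, and the C allele was 1.63-fold higher (0.71 ± 0.38; adjusted p = 0.0125). This call was lost with limma and without replicate 4, 5 or 6 (adjusted p up to 0.0974). SH-SY5Y gave 0.14 ± 0.67, positive in 3 of 6 replicates (adjusted p = 0.936). Differences between lines were 0.57 (95% interval -0.054 to 1.20) for ZFP3 C and 0.38 (-0.79 to 1.55) for ZKSCAN1 A, and neither passed (adjusted p = 0.882 and 0.972).

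The sign of all 9 microglia calls was the same in SH-SY5Y, beside 212 of 226 over all variants of the assay. The A and T alleles of ZFP64 share reference counts, as do those of ZBTB22, so the 9 are not separate agreements. Calls in both lines numbered 2, both in ZFP64 (0.321% of variants, beside 0.185% over the assay). No variant was called for the difference between lines: 0 of 623 passed in edgeR, 0 with DESeq2 and 0 with limma, beside 0.0462% of all variants in edgeR. An unadjusted p under 0.05 (edgeR) was found for 33 (5.30%), beside 5.67% of all variants. The median standard error of that difference was 0.39. Over the 623 variants the effects of the lines correlated at r = 0.257 (rho = 0.183), against 0.199 over all 12989 variants. These correlations describe variants of the same 24 libraries, some of which share a reference oligo.

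The lowest mean DNA count of a called allele was 397 per library in microglia and 700 in SH-SY5Y (per library, over 6 libraries). RNA and DNA ratios of the 6 libraries did not overlap for 9 variants in microglia, or 1.44% beside 1.61% of all variants, and for 8 in SH-SY5Y, or 1.28% beside 1.78%. Typical effects were small: the median size was 0.17 in microglia and 0.25 in SH-SY5Y for zinc finger variants, with 0.17 and 0.25 over all variants.

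Subfamilies held few calls each. In microglia 2 of 413 ZNF, 0 of 74 ZSCAN, 2 of 65 ZKSCAN, 3 of 19 ZFP and 2 of 52 ZBTB variants passed. For ZSCAN, 8 variants (10.8%) had an unadjusted p under 0.05, and DESeq2 and limma called 0. In SH-SY5Y edgeR called 0 of 417 ZNF, 0 of 74 ZSCAN, 0 of 65 ZKSCAN and 0 of 52 ZBTB variants, where 31, 4, 4 and 3 had an unadjusted p under 0.05. DESeq2 called 9, 2, 1 and 1 of these and limma 1, 0, 0 and 0. On chromosome 19, home of the large KRAB clusters, edgeR called 0 of 173 variants in either line. There 14 in microglia (8.09%) and 11 in SH-SY5Y (6.36%) had an unadjusted p under 0.05 (DESeq2 called 2 and 4, limma 0 and 1). Chromosome 6 held 3 calls among its 139 tested variants in microglia. Over all variants of the assay, 1.74% were called in microglia and 0.399% in SH-SY5Y. At an unadjusted p under 0.05 these shares were 9.38% and 8.73%.

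The strongest effects that missed the threshold in microglia had adjusted p-values of 0.0561 to 0.0912. ZNF276 rs11644967 T>A was lower in 6 of 6 replicates (-0.42 ± 0.14), with log2 ratios of -1.28, -1.08 and -0.80 in DNA and -1.64, -1.48 and -1.25 in RNA, which overlap by a small margin. ZNF391 rs10946913 C>G was higher in 6 of 6 (0.55 ± 0.25), with 0.51, 0.67 and 0.77 in DNA and 0.83, 1.19 and 1.56 in RNA, which do not overlap. The other values were -0.61 ± 0.36 for ZNF432 rs12460617 C>T, -0.58 ± 0.34 for ZNF589 rs9811443 C>G and -0.48 ± 0.31 for ZNF391 rs3734574 G>A.

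In SH-SY5Y the nearest to the threshold was ZBTB6 rs16912318 C>G at 0.59 ± 0.16 (adjusted p = 0.0750). Its log2 ratios were -0.28, -0.19 and -0.044 in DNA and 0.15, 0.44 and 0.61 in RNA, with no overlap, while microglia gave -0.060 ± 0.38 (adjusted p = 0.955). The effect differed by -0.65 between lines (95% interval -1.09 to -0.21), which did not pass adjustment (adjusted p = 0.594). ZKSCAN4 rs75876212 followed, then ZNF841 rs76368799 T>C (-0.92 ± 0.26; adjusted p = 0.211) and ZNF641 rs2732467 G>C (-1.24 ± 0.75; adjusted p = 0.218). ZNF320 rs117176126 C>G gave 3.81 ± 2.79 (adjusted p = 0.224), but its reference oligo had 13 RNA counts in all SH-SY5Y libraries together.

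Other SNPs of the genes with calls stayed below the threshold. In microglia the other tested variants ranged from -0.58 to 0.80 in ZNF589 (24 variants), from -0.25 to 0.60 in ZKSCAN1 (17), from -1.42 to 0.56 in ZFP3 (15) and from -3.60 to 0.65 in ZKSCAN4 (15). The medians of these sets were 0.088, 0.091, 0.023 and 0.049. In SH-SY5Y the ranges were -1.27 to 4.24, -0.61 to 0.49, -0.47 to 0.67 and -3.19 to 1.81, again with none called. The 4.24 was at ZNF589 rs150832948, whose reference oligo had 3 RNA counts in SH-SY5Y. That SNP was not tested in microglia. In edgeR 3, 1, 1 and 1 of them had an unadjusted p under 0.05 in microglia and 3, 0, 1 and 1 in SH-SY5Y, while DESeq2 called 1 and 2 in ZNF589 and 0 in the others, and limma called 0.

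Several SNPs carried more than 1 alternative base: 75 had 2 and 15 had 3, and 449 had 1. With at least 2 bases tested, effects had the same sign at 60 of 85 SNPs in microglia and at 51 of 87 in SH-SY5Y. The shared reference oligo pushes such effects toward the same sign.

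Reporter activity compares the RNA of a reference oligo with its plasmid DNA on the log2 scale, and 0 is the level of a typical oligo. In microglia, 108 of 526 zinc finger fragments passed the threshold, 45 higher and 63 lower, and in SH-SY5Y 40 of 528 passed, 18 higher and 22 lower. Over all reference oligos 20.8% were called in microglia (8.46% higher, 12.3% lower) and 8.72% in SH-SY5Y (4.19% higher, 4.53% lower), and over zinc finger fragments 20.5% and 7.58%. Their median activity was -0.0014 in microglia and 0.046 in SH-SY5Y, against 0.018 and 0.049 over all oligos. With total counts in place of TMM scaling, the split in SH-SY5Y was 11 higher and 29 lower, and in microglia 45 higher and 62 lower. Leaving out a replicate lowered the higher count in SH-SY5Y each time, to 7 without replicate 4, 8 without replicate 1, 11 without replicate 6 and at most 15, while 18 to 24 were lower.

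Levels of RNA and DNA, as CPM of the TMM-scaled library totals, did not overlap for 49 fragments in microglia (9.32%, beside 10.7% of all) and for 39 in SH-SY5Y (7.39%, beside 8.47%). By subfamily, 67 of 347 ZNF, 8 of 66 ZSCAN, 20 of 56 ZKSCAN, 2 of 15 ZFP and 11 of 42 ZBTB fragments were called in microglia. ZKSCAN1 alone held 11 of the 20 ZKSCAN calls. In SH-SY5Y the counts were 31 of 349, 2 of 66, 3 of 56, 0 of 15 and 4 of 42. For the ZFP fragments there, 1 had an unadjusted p under 0.05, and DESeq2 and limma called 0. Over all reference oligos, as above, 20.8% were called in microglia and 8.72% in SH-SY5Y.

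Counting 1 fragment per gene, the 4 lowest in microglia came from ZKSCAN1, ZKSCAN4, ZNF432 and ZBTB37. ZKSCAN1 rs73395910 had 34.0, 42.1 and 45.7 CPM in DNA (lowest, median, highest) and 2.35, 7.70 and 10.9 CPM in RNA. Every RNA library lay below every DNA library, and the fragment was 5.81-fold lower (log2 -2.54 ± 0.80; adjusted p = 8.00e-14). Its alternative oligo was as low, at -2.40 ± 0.36. SH-SY5Y gave -1.21 ± 1.55, which missed the threshold (adjusted p = 0.0599), although RNA and DNA did not overlap, and without replicate 3 it passed at -0.96 (adjusted p = 0.00855).

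ZBTB37 rs9425430, in a BTB gene of chromosome 1 (173868082 to 173903547), had 36.4, 39.7 and 49.3 CPM in microglia DNA and 7.35, 10.9 and 12.8 in RNA. In SH-SY5Y it had 29.6, 36.6 and 38.3 in DNA and 11.2, 18.4 and 22.7 in RNA. The RNA libraries lay below the DNA libraries in both lines, and the fragment was 3.88-fold lower in microglia (-1.96 ± 0.27; adjusted p = 1.23e-13) and 2.05-fold lower in SH-SY5Y (-1.03 ± 0.43; adjusted p = 0.00327). The difference, -0.95 (95% interval -1.46 to -0.43), missed the threshold (adjusted p = 0.0560).

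ZNF432, a KRAB gene of chromosome 19 (52031378 to 52048838), had a pair of low fragments. For rs144731656 the microglia RNA held 0.21, 1.55 and 2.49 CPM against 5.63, 8.15 and 11.9 in DNA (-2.40 ± 1.30; adjusted p = 7.69e-06). For rs144016708 SH-SY5Y RNA held 0.17, 0.50 and 1.87 CPM against 7.03, 8.92 and 10.6 in DNA (-3.62 ± 1.32; adjusted p = 0.000828), and microglia gave -1.76 ± 1.06 (adjusted p = 0.000326). RNA and DNA did not overlap in any of these. ZKSCAN4 rs145380951 was also among the lowest in microglia (-2.46 ± 2.55; adjusted p = 0.00908) with 34 RNA counts in all.

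Other lowest fragments of SH-SY5Y rest on few counts. ZNF490 rs143731940 had 3 RNA counts against 100 in DNA, and was 25.9-fold lower with a 95% counting interval of 8.60 to 127. ZNF589 rs150832948 had 3 against 93, or 24.05-fold lower (7.98 to 119). Its call (adjusted p = 0.0111) was lost with replicate numbers as a block (adjusted p = 0.0611). ZNF320 rs117176126 had 13 RNA counts (-3.40 ± 1.33; adjusted p = 0.0130). In microglia the ZNF490 and ZNF320 fragments gave -0.75 ± 2.38 and -0.12 ± 2.17 (adjusted p = 0.692 and 0.941), and ZNF589 rs150832948 was below the DNA minimum.

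Raised fragments changed less. In microglia the highest was ZKSCAN1 rs10274894, with 41.3, 48.1 and 51.4 CPM in DNA and 70.5, 86.4 and 104 in RNA. All RNA libraries were above all DNA libraries, and the fragment was 1.83-fold higher (0.87 ± 0.18; adjusted p = 1.64e-09), while SH-SY5Y gave 0.18 ± 0.49 (adjusted p = 0.613). ZNF276 rs1061647 (0.74 ± 0.45; adjusted p = 0.00856), ZKSCAN3 rs11752496 (0.72 ± 0.27; adjusted p = 0.0119) and ZNF3 rs6592 (0.61 ± 0.18; adjusted p = 2.13e-06) followed. ZKSCAN3 is known as a repressor of autophagy genes. Its call was lost without replicate 4 (adjusted p = 0.0844).

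In SH-SY5Y the highest was ZNF320 rs35140844, a fragment of a KRAB gene on chromosome 19 (52859491 to 52904320). It had 30.5, 31.8 and 34.2 CPM in DNA and 42.0, 57.0 and 77.2 in RNA, with no overlap, and was 1.84-fold higher (0.88 ± 0.36; adjusted p = 0.00183). ZNF841 rs76368799 (0.77 ± 0.33; adjusted p = 0.0171), ZSCAN23 rs9969098 (0.72 ± 0.35; adjusted p = 0.0443) and ZNF276 rs17227417 (0.68 ± 0.41; adjusted p = 0.0199) came next. None of these 4 was called in microglia, where they gave 0.18, 0.13, 0.18 and -0.14. The differences between lines, -0.72, -0.67, -0.56 and -0.84, did not pass (adjusted p = 0.122, 0.376, 0.521 and 0.0839). The ZSCAN23 call was lost with total counts in place of TMM and with replicate numbers as a block. It was also lost without replicate 1, 2, 4, 5 or 6 (adjusted p up to 0.134 over all alternatives). The ZNF841 call was lost with that block (adjusted p = 0.0611) and without replicate 1 or 4. The ZNF276 call was lost without 2, 3 or 6 (adjusted p up to 0.0855).

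In both lines together, 24 of the 526 fragments tested in both were called (4.56%, beside 5.95% of all oligos): 17 lower in both, 6 higher in both and 1 opposite. That is 61.5% of the 39 SH-SY5Y calls and 22.2% of the 108 microglia calls, where over all oligos the shares were 68.5% and 28.6%. Beyond those above, the lower fragments included the following, chosen after their values were seen. ZBTB6 rs16912318 had 97.5, 103 and 108 CPM in SH-SY5Y DNA and 26.8, 37.3 and 49.9 in RNA, and 81.5, 104 and 112 in microglia DNA and 28.5, 36.7 and 45.7 in RNA. The lines were close, at -1.45 ± 0.32 and -1.47 ± 0.25, a difference of -0.043 (95% interval -0.40 to 0.31).

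Similar pairs of values were found for ZNF789 rs147944313 (-1.56 ± 0.17 in SH-SY5Y and -1.79 ± 0.53 in microglia), ZNF646 rs11864839 (-1.71 ± 1.03 and -1.92 ± 0.49), ZNF507 rs73034207 (-2.20 ± 0.90 and -1.90 ± 0.59) and ZNF660 rs77557455 (-1.19 ± 0.59 and -1.21 ± 0.19). RNA and DNA did not overlap in either line for these 4. The 6 fragments higher in both lines were smaller in size: ZNF3 rs73395937, ZNF490 rs10421564, ZNF589 rs28479704, ZNF616 rs73571268, ZNF641 rs73291366 and ZNF655 rs60680549 lay between 0.34 and 0.59 in SH-SY5Y and between 0.25 and 0.51 in microglia. Of the 23 fragments with 1 direction, 15 to 20 kept both calls when a replicate was left out. Over the 526 fragments, activity in the lines correlated at r = 0.602 (rho = 0.523), against 0.596 over all 10948.

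Activity differed between lines for 4 of 526 fragments (0.760%), all lower in microglia. Over all oligos 0.986% were called, 85 of them lower in microglia and 23 higher. The median difference was itself below 0, at -0.057 over zinc finger fragments and -0.072 over all oligos, with 41.8% and 40.1% positive. ZNF589 rs879080031 was the fragment with opposite calls: SH-SY5Y had 81.1, 86.7 and 91.7 CPM in DNA and 78.4, 128 and 151 in RNA, while microglia had 72.4, 79.8 and 96.4 in DNA and 50.7, 56.4 and 60.2 in RNA. Only the microglia ranges were apart. Activity was 0.49 ± 0.35 in SH-SY5Y (adjusted p = 0.0212) and -0.58 ± 0.090 in microglia (adjusted p = 6.04e-06), a difference of -1.09 (95% interval -1.41 to -0.77; adjusted p = 9.03e-05). The difference held under every alternative, and the SH-SY5Y call was lost with limma and without replicate 1, 2, 5 or 6.

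ZKSCAN4 rs7757215 had 38.1, 40.7 and 43.5 CPM in SH-SY5Y DNA and 11.9, 16.03 and 23.6 in RNA. In microglia it had 42.4, 46.5 and 54.4 in DNA and 7.99, 9.18 and 13.2 in RNA. The fragment was low in both lines with no overlap (-1.29 ± 0.40 and -2.24 ± 0.28), and lower in microglia by -0.98 (95% interval -1.47 to -0.49; adjusted p = 0.0332). The difference was lost with total counts, with replicate numbers as a block, and whichever 1 of the 6 replicates was left out (adjusted p up to 0.143 over all alternatives).

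ZSCAN12 rs7764737, of a SCAN gene (chromosome 6, 28378821 to 28399747), had 99.8, 107 and 113 CPM in SH-SY5Y DNA and 58.0, 74.2 and 79.0 in RNA, and 103, 106 and 124 in microglia DNA and 47.1, 52.2 and 55.2 in RNA. RNA lay below DNA throughout, at -0.56 ± 0.17 and -1.08 ± 0.094, and the difference was -0.55 (95% interval -0.79 to -0.30; adjusted p = 0.0156). ZNF589 rs114547396, outside the naming rule and chosen after its value was seen, differed by -0.62 (-0.91 to -0.34; adjusted p = 0.0156), from -0.20 ± 0.33 to -0.81 ± 0.096. Both differences were lost with total counts (adjusted p up to 0.0885 and 0.116 over all alternatives). Without replicate 1, 2, 5 or 6 the ZSCAN12 difference was lost, and without 2, 3, 4 or 6, or with limma, that of ZNF589 rs114547396.

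Reference activity and allelic effect can be set side by side for the 9 called variants in microglia. In ZKSCAN4 rs75876212 and ZFP64 rs79646797 the reference fragments measured -0.18 ± 0.070 and -0.29 ± 0.17. That of ZFP64 was itself called lower (adjusted p = 0.0221), a call lost without replicate 2 or 3. The alternative fragments were lower: -1.65 ± 0.18 for ZKSCAN4 C, -1.91 ± 0.31 for ZFP64 A and -2.15 ± 0.78 for ZFP64 T. At the SNPs with higher alternatives, the reference was the low allele. It measured -0.78 ± 0.19 in ZBTB22, -0.95 ± 0.28 in ZFP3, -0.81 ± 0.096 and -0.58 ± 0.090 in ZNF589, and -1.96 ± 0.52 in ZKSCAN1 rs1141057.

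The higher alternatives lay nearer to 0, at 0.14 ± 0.17 and 0.15 ± 0.20 for ZBTB22 A and T, -0.23 ± 0.31 for ZFP3 C, and -0.10 ± 0.17 and 0.094 ± 0.23 for ZNF589 rs114547396 G and rs879080031 T. ZKSCAN1 rs1141057 A stayed at -0.95 ± 0.21 and its T allele at -1.97 ± 0.24. The reference counts enter both the activity and the allelic effect, so a low reference count raises one as it lowers the other, and these values are a description. In both ZNF589 SNPs the reference fragment was lower in microglia than in SH-SY5Y by the test above, and the alternative fragment measured 0.078 ± 0.36 and 0.56 ± 0.19 in SH-SY5Y.

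Alternative oligos mostly kept the sign of a called reference. Reference values came from the fit of reference oligos, and alternative values from a fit of both kinds. A SNP with several alternatives gave several pairs with 1 reference. In microglia, 123 of 135 pairs with a called reference had the same sign (91.1%, beside 93.1% of all such pairs). In 74 of them the alternative was also called in that direction (54.8%, beside 58.4%). In SH-SY5Y the counts were 48 of 51 (94.1%, beside 92.0%) and 20 (39.2%, beside 40.5%).

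Among the 4 genes with the most fragments, most fragments lay close to the typical oligo. ZNF641, a KRAB gene of chromosome 12 (48334587 to 48351246), had 34 fragments from -0.54 to 1.01 in SH-SY5Y and from -0.59 to 0.55 in microglia, with 2 and 7 called. ZSCAN12 had 32 from -0.80 to 0.80 and from -1.08 to 0.55, with 1 and 5 called. ZNF589 had 22 tested in SH-SY5Y from -4.31 to 0.64 and 21 in microglia from -1.07 to 0.26, with 5 and 6 called. The -4.31 belongs to rs150832948, which had 3 RNA counts in SH-SY5Y and was not tested in microglia. ZNF276 had 20 from -0.93 to 0.68 and from -0.55 to 0.74, with 1 and 5 called.

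ZKSCAN1, chosen after its values were seen, spanned more: its 17 fragments ran from -2.54 to 0.87 in microglia, 4 called higher and 7 lower, and from -1.70 to 0.45 in SH-SY5Y with 1 called, lower. The low end held rs73395910, rs60697181 (-2.23 ± 0.59) and rs1141057. Its alternative oligos at those SNPs measured -2.40 for rs73395910 and -1.57 for rs60697181 in microglia. Whether neighbouring SNPs share part of a fragment was not examined, so these fragments may overlap.

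Related genes were counted in the same way. Of the 19 listed partners in KRAB silencing, 4 were in the assay (CBX1, DNMT3B, MTA3 and UHRF1), with 22 variants. Of these variants, 1 was called lower in each line. For the difference between lines 0 were called (2 at an unadjusted p under 0.05, and 1 with DESeq2 and 0 with limma). In microglia 1 of 19 fragments was called, lower. In SH-SY5Y 0 of those 19 fragments were called (2 at an unadjusted p under 0.05, 1 with DESeq2 and 0 with limma). C2H2 transcription factors with other symbols had 11 genes and 76 tested variants, none called in either line (6 in SH-SY5Y and 7 in microglia at an unadjusted p under 0.05, with 1 and 0 by DESeq2 and 0 and 0 by limma). Of their 68 fragments, 4 were called in SH-SY5Y (5.88%) and 11 in microglia (16.2%), 2 and 6 of them higher. Over the whole assay 8.72% of reference oligos were called in SH-SY5Y and 20.8% in microglia. For variants the shares were 0.399% and 1.74%, and 0.0462% were called for the difference between lines.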

How the data were processed

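Reporter plasmid DNA and polyadenylated RNA were counted in 24 libraries, 6 of each kind per line, grouped by the sample labels. The authors deposited raw whole-number counts of both alleles of every variant in every library. Reads had been handled with UMI-tools 1.0.0, SAMtools 1.10, cutadapt 2.7 and Bowtie2 on genome build hg38, per the submitters' processing notes, and per the labels' protocols the RNA primer carried a molecular identifier of 10 nt. The Bowtie2 version, mapping settings, strand of the alleles and any identifier on the DNA are not given in the sources used here. Oligos of a SNP differ by 1 base, so a sequencing error there could count for the other allele.

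All models were fitted on the whole table with edgeR 4.0.16 in R 4.3.3 (quasi-likelihood F test), Benjamini-Hochberg adjustment ran over everything tested, and zinc finger results were then taken out. In the allelic test a library gave 1 column per allele and was a block. Activity was tested on reference oligos, with TMM over all oligos of the libraries in the fit, and alternative oligos were measured in a fit of both kinds. Differences between lines were interaction terms (microglia minus SH-SY5Y) in fits of all libraries, in which TMM spans both lines, so they need not equal the difference of the per-line values. Tests needed a mean of 10 DNA counts, and the threshold was 0.05. Each ± is the SD over 6 RNA replicates of log2 values against the DNA mean, with a pseudocount of 0.5, and 95% intervals come from the fit, except those of 3-count fragments, which cover counting error only.

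The alternatives were DESeq2 1.42.0, limma 3.58.1, other DNA minimums (none, 50 and 200), total counts, a replicate block and leaving out each replicate number; subtraction of shared reads was added after seeing the data. The code was tested on simulated counts. Named by rule were all called allelic variants, the other variants of their genes, the 5 nearest to the threshold per line, the 4 highest and 4 lowest called fragments per comparison (1 per gene and direction) and the 4 genes with the most fragments. Members, lists and rules were chosen with earlier results of these data known.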

Additional observations from a re-analysis of the deposited data

Results flagged for a closer look

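Of 73 sets of 6 RNA replicates examined, 8 held a replicate standing apart by Dixon's test, which chance alone gives in about 1 set in 20. Among allelic effects, SH-SY5Y replicate 4 gave 0.97 for ZNF589 rs879080031 G>T, SH-SY5Y replicate 1 gave 0.22 for ZNF641 rs2732467 G>C, and microglia replicate 2 gave 0.47 for ZNF841 rs76368799 T>C. Among activities, SH-SY5Y replicate 2 was far below the others for ZNF276 rs1061647 (-3.23) and ZNF3 rs6592 (-0.82), and replicate 3 for ZKSCAN1 rs73395910 (-4.68). Microglia replicate 6 was far below the others for ZNF432 rs144731656 (-5.23) and ZBTB37 rs9425430 (-2.48). Without replicate 2 the SH-SY5Y activity of ZNF276 rs1061647 passed the threshold (adjusted p = 0.0459), as did ZKSCAN1 rs73395910 without replicate 3 (adjusted p = 0.00855). The cause of these values was not tested.

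By the interaction test, 4 fragments had different activity in the lines: ZNF589 rs879080031 (-1.09), ZKSCAN4 rs7757215 (-0.98), ZNF589 rs114547396 (-0.62) and ZSCAN12 rs7764737 (-0.55), microglia minus SH-SY5Y.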

How the results depend on the processing

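None of the called allelic effects, activities or differences changed sign under any alternative that gave it a value. Counts of calls by DESeq2 were 15 in SH-SY5Y and 19 in microglia for allelic effects (edgeR 2 and 9), 69 for SH-SY5Y activity, 30 higher and 39 lower (edgeR 40), and 11 for the activity difference (edgeR 4). With total counts in place of TMM the activity difference had 1 call, and with limma 29 fragments were called higher in microglia (edgeR 45). Leaving out a replicate gave 0 to 2 allelic calls in SH-SY5Y, 25 to 37 activity calls in SH-SY5Y and 1 to 4 activity differences, while microglia had 8 to 11 allelic and 87 to 94 activity calls. Fits without a replicate also hold fewer samples. The cause of these changes was not tested.

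Same-numbered DNA and RNA libraries correlated at 0.0241 to 0.0584 in SH-SY5Y and 0.0248 to 0.0567 in microglia over 21047 oligos. Each correlated best with its own number. Between other numbers the values were -0.0281 to 0.0112 in SH-SY5Y and -0.0290 to 0.00906 in microglia. RNA libraries of different lines correlated at 0.0570 to 0.0989 for the same number and -0.0330 to 0.00437 for other numbers. That is a hint of pairing from the data, not the design: the labels do not say that a number marks 1 transfection, and all correlations were under the 0.1 required here, so the numbers were not taken as pairs. With the replicate block, calls numbered 2, 9 and 0 for allelic effects (SH-SY5Y, microglia, difference) and 35, 111 and 3 for activity. In SH-SY5Y 9 of the 35 were higher, against 18 of 40 without the block. Among named results, the block ended the SH-SY5Y activity calls of ZNF841 rs76368799 and ZNF589 rs150832948 (adjusted p = 0.0611 for both) and ZSCAN23 rs9969098 (0.130) and the called difference of ZKSCAN4 rs7757215 (0.0993). With it the SH-SY5Y activities of ZKSCAN1 rs73395910 and ZNF432 rs144731656 passed (adjusted p = 0.0314 and 0.0266). Subtracting shared reads, chosen after seeing the data, gave 2, 9, 0, 38, 103 and 5. Depth limits the fragments with 3, 13 or 34 RNA counts in all, whose SDs or intervals are wide.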
